A study of Mus musculus with 36 samples.

Results

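The Ikaros family comprises 5 zinc finger transcription factors, encoded in the mouse by Ikzf1 (Ikaros), Ikzf2 (Helios), Ikzf3 (Aiolos), Ikzf4 (Eos) and Ikzf5 (Pegasus). Accessible regions were assigned to these genes by merging the peaks of all 36 ATAC-seq libraries that overlapped by at least 1 bp and keeping the regions whose centre was nearest to a protein-coding transcription start site (TSS) of a member. This gave 52 regions of 105005 in all: 20 for Ikzf1, 27 for Ikzf2, 0 for Ikzf3, 4 for Ikzf4 and 1 for Ikzf5. The nearest gene need not be the one a region acts on.

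The libraries were made from hematopoietic stem cells (HSCs), 4 kinds of multipotent progenitor (MPP1 to MPP4) and 3 committed fractions, sorted from bone marrow of C57BL/6 mice. The committed fractions were GMPs, the progenitors of granulocytes and macrophages, MEPs, those of megakaryocytes and erythrocytes, and CLPs, the common lymphoid progenitors. Young mice were 10 weeks and aged mice 20 months old, and per the methods of the study they were female. There were 4 HSC libraries of each age and 2 libraries of each age for every other fraction, each from 20000 cells. Cells of several mice were pooled by age, animals may therefore be shared between libraries, and p-values measure the spread between these libraries only.

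Ikaros proteins bind DNA through zinc fingers near the N terminus and pair with themselves or each other through zinc fingers near the C terminus. They act with chromatin remodelling and deacetylase complexes, among them NuRD. Ikaros is required for lymphoid development and also acts in stem cells, in myeloid cells and in the switch from fetal to adult globin, Helios is known from HSCs and regulatory T cells, Aiolos from maturing lymphocytes and Eos from regulatory T cells, while Pegasus is the most divergent and most widely expressed member.

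The libraries differed widely in the number of regions called. GMP libraries held 50850 to 61449 regions and MEP libraries 9289 to 10667, against 26220 to 38676 in all other libraries. The lists give no read counts, and the depth behind a peak is therefore unknown apart from the authors' subsampling of all libraries to one number of reads. The labels of HSCs, GMPs, MEPs and CLPs were checked against 5 marker genes each, and those of the MPPs were not. GMP libraries called 19 to 21 of the 24 regions of the GMP list, against 1 to 8 in all other libraries, and of its 5 TSSs that of Elane was called in all 4 GMP and no other libraries, Mpo in all 4 GMP and 1 MPP3 library, Cebpe in 3 GMP libraries and no other, Csf3r in all 4 GMP libraries and in libraries of all fractions except MEPs, and Prtn3 in none. HSC libraries called 24 to 41 of the 100 regions of the HSC list, MPP1 libraries 26 to 38, GMP libraries 25 to 37 and CLP libraries 17 to 29, so that list sets HSCs apart from MEPs (0 to 2) alone. Of its TSSs, those of Hlf and Meis1 had a peak in each of the 8 HSC libraries and most others. That of Procr had one in 4 HSC, 2 MPP3 and 3 GMP libraries, and that of Hoxa9 in 3 HSC, 2 MPP3 and all 4 GMP libraries. Mecom had one in 0 HSC but 3 GMP libraries. CLP libraries called 11 to 16 of the 38 regions of the CLP list and GMP libraries 13 to 19, which is 4.81 per 10000 called regions in CLPs and 2.91 in GMPs. Of the CLP markers, the Il7r TSS was called in all MPP4, GMP and CLP libraries and in no other, the Rag1 TSS in 2 CLP libraries and in no other, and the Ebf1 TSS in 3 of 4 CLP libraries but also in all 8 HSC libraries, while the TSSs of Dntt and Cd79a were called in none. MEP libraries called 4 to 5 of the 23 regions of the MEP list, no more than any other fraction. GMP libraries called 12 to 16, MPP1 7 to 9, MPP2 8 to 9, MPP3 6 to 8, HSC and MPP4 5 to 8, and CLP 5 to 7. Per 10000 called regions this is 4.92 in MEPs against 1.82 to 2.72 elsewhere, a rate taken over the short MEP lists. No library had a peak over the TSS of Klf1, Gata1 or Epor. By this list the MEP label therefore rests on that rate, and not on the number of regions or on these promoters.

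The 5 regions that carry the comparisons below are shown first, as the 201 bases around the median summit of their peaks, on the forward strand of mm10 (sequence from the GRCm38.p6 assembly). Capitals mark matches, on either strand, to short motif words. The Ikaros family word was TGGGAA and the ETS word GGAAGT. For RUNX factors the word TGTGGT was searched and for GATA factors the word AGATAA. The E-box was CAGCTG and the AP-1 word TGANTCA. The C/EBP word was TTGC and AA parted by any 2 bases, and words for IRF, EBF and CTCF factors were searched as well. A second GATA word, TGATAA, was added after the sequences had been seen. TGGGAA and GGAAGT can share letters, as can the reverse of TGTGGT and AGATAA. A match describes the letters and not the binding of a factor.

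The first pair was called in all 4 MEP libraries and in no other library, at chr11:11729249-11729449 in intron 3 of an annotated Ikzf1 transcript and at chr1:69559823-69560023 in intron 5 of an annotated Ikzf2 transcript.
Ikzf1 +42.8 kb: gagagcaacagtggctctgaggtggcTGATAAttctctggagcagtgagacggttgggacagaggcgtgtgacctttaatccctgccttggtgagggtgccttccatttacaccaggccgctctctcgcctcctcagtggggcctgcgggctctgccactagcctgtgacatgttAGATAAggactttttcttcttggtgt
Ikzf2 +124.3 kb: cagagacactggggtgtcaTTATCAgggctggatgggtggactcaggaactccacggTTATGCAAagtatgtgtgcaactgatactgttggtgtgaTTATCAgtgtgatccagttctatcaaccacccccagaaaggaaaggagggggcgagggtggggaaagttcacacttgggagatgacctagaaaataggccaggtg

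The Ikzf1 region holds TGATAA at position 27 and AGATAA at position 176 of the 201 bases, counted from 1 at the left end. The Ikzf2 region holds no AGATAA but TGATAA on the reverse strand at positions 20 and 97, and a C/EBP word at position 58. AGATAA was present in 10.3% of 104815 windows of this length around all regions with a full window, and in 61.4% of the 280 such regions that were called in every MEP library and in no other library. For TGATAA these shares were 7.91% and 33.6%, and 9 of the 52 family regions (17.3%) held it. GATA words were not confined to regions called in MEPs. The windows of Ikzf2 +170.5 kb and Ikzf1 +25.6 kb, which no MEP library called, each held AGATAA at 2 places and TGATAA at 1.

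The next region, at chr11:11716691-11716891 in intron 3 of Ikzf1, was called in all GMP and all CLP libraries and in no other, and the one after it, at chr1:69606988-69607188 in intron 3 of Ikzf2, was called in all libraries except those of MEPs and CLPs. The last lies upstream of Ikzf1 at chr11:11657247-11657447, between genes, and was called in 34 of 36 libraries.
Ikzf1 +30.3 kb: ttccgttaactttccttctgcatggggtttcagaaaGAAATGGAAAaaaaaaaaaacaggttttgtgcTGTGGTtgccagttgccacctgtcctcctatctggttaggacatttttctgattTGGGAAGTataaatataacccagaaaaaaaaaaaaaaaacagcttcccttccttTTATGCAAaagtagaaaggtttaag
Ikzf2 +77.1 kb: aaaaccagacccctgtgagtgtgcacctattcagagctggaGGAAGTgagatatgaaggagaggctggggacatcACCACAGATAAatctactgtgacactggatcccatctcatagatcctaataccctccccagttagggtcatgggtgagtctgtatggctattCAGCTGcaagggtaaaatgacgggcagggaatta
Ikzf1 28.6 kb upstream: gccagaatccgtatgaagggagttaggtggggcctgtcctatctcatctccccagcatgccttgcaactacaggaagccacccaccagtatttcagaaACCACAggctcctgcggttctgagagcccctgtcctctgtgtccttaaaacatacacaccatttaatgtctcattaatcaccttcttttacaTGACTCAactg

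The region at +30.3 kb holds an IRF word at position 37, a RUNX word at position 69, the Ikaros word at position 123 sharing letters with an ETS word at position 125, and a C/EBP word at position 177. At +77.1 kb of Ikzf2 an ETS word, a RUNX word overlapping AGATAA by 1 base, and an E-box were found. The upstream Ikzf1 region holds a RUNX word that covers the summit, beginning 2 bases before it, and an AP-1 word, the only AP-1 match in the family.

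Over the whole family, 12 of 52 regions (23.1%) held the Ikaros word TGGGAA against 17.2% of all regions, 11 (21.2%) held AGATAA against 10.3%, 18 (34.6%) an ETS word against 32.6%, 16 (30.8%) a RUNX word against 25.6%, and 1 (1.92%) an AP-1 word against 11.3%. C/EBP words were in 13.5% of family regions against 13.2%, IRF words in 3.85% against 3.89%, E-boxes in 13.5% against 14.6%, EBF words in 0 against 0.463% and CTCF words in 0 against 0.81%. The median GC content was 46.5% in the family and 49.8% over all regions.

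By the position of their centre relative to protein-coding transcripts, 26 of the 52 regions lay in introns, 22 between genes, 2 in coding exons and 2 in untranslated exons. The share within promoters was 11.5% against 11.6% for all regions, while the median distance to the TSS was 41361.5 bp against 18733 bp. Both large genes had many regions: 809 of the 17841 genes with any region had at least the 20 of Ikzf1, 395 had at least the 27 of Ikzf2, and the median gene had 4. Most family regions were called in few libraries. Of the 52, 11 were called in 1 library, 23 in 2 to 8, 12 in 9 or more but fewer than 30, 5 in 30 to 35 and 1 in all 36.

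**Figure D1:**
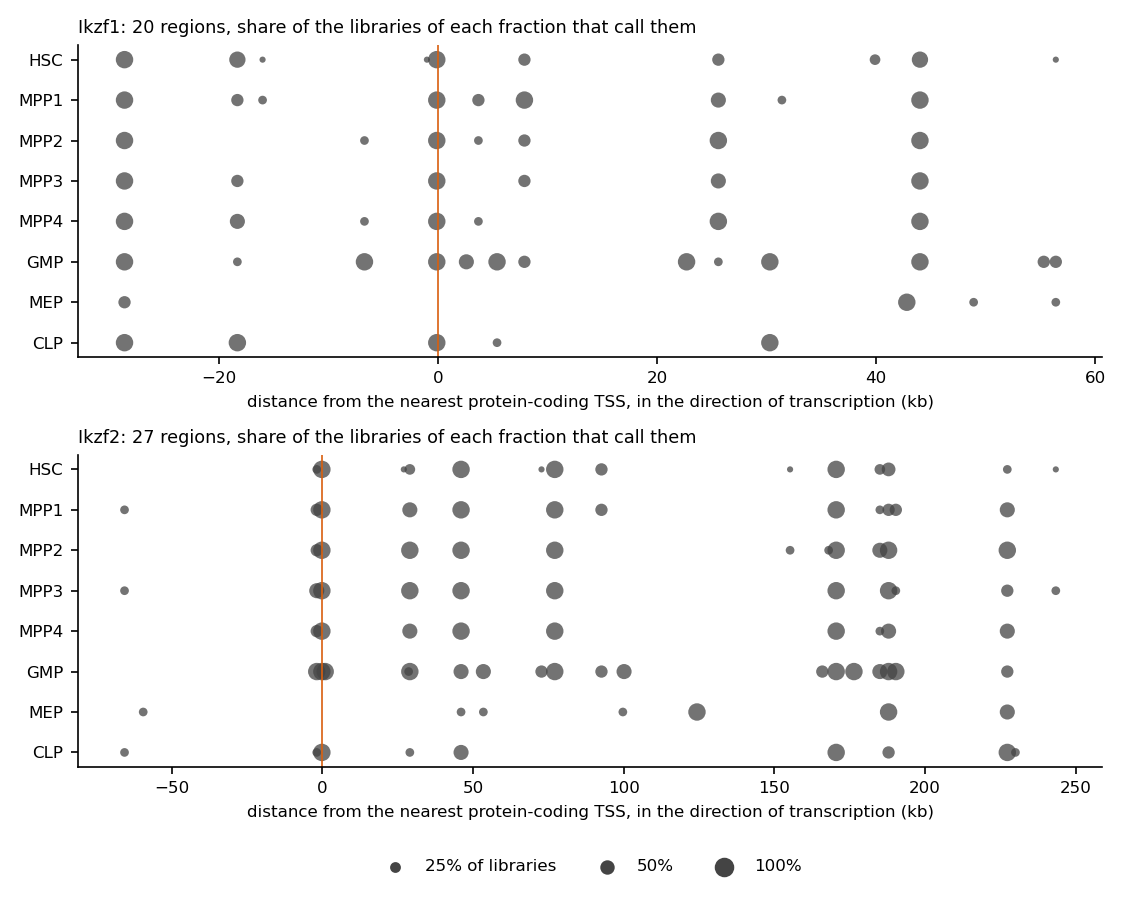
Regions of Ikzf1 and Ikzf2 by distance from the nearest protein-coding TSS in kb (x axis, positive in the direction of transcription) and by fraction (y axis), with the dot area giving the share of the fraction's libraries that called the region. The promoter column is filled in all fractions except MEPs, and MEPs hold 1 full-size dot in each gene body, at +42.8 kb and at +124.3 kb, where no other fraction has one.

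GMPs called the most and MEPs the fewest family regions, as they did of all regions. The 4 GMP libraries called 20 to 31 family regions (median 26.5), the 8 HSC libraries 10 to 22 (median 13.5), the 4 CLP libraries 9 to 15 (median 11) and the 4 MEP libraries 4 to 10 (median 7). Per 10000 called regions the medians were 7.25 in MEPs, 3.53 in CLPs and 4.40 to 5.10 in the other fractions, so MEPs with the fewest peaks had the highest median rate. The young MEP libraries gave 4.31 and 6.19 and the aged ones 8.31 and 9.38, against 3.42 to 5.88 in libraries of the other fractions. The first young MEP library thus lay within the range of the others. The young MEP libraries called 4 and 6 family regions and the aged ones 8 and 10, a difference that was not tested. GMPs called 35 of the 52 regions in at least 1 library, HSCs 26, CLPs 17 and MEPs 13.

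**Figure D2:**
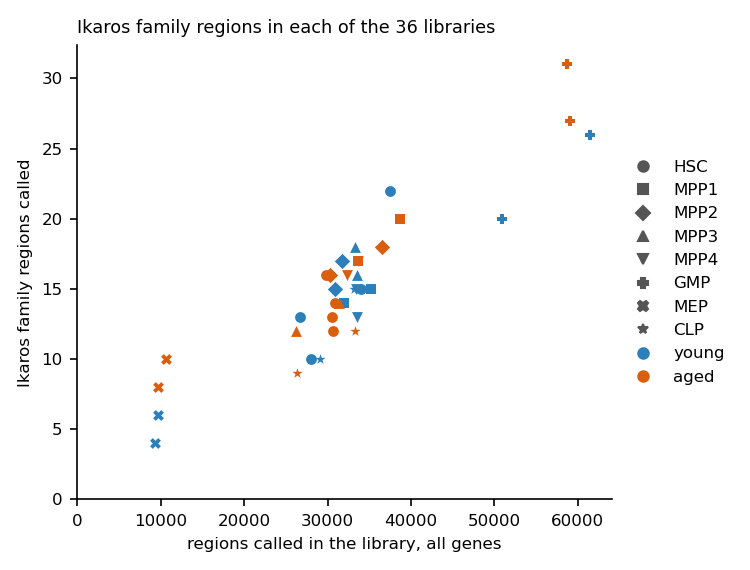
Ikaros family regions called (y axis) against all regions called (x axis) for each of the 36 libraries, with the fraction given by the symbol and the age by the colour. The GMP libraries stand at the upper right with 20 to 31 family regions and the MEP libraries at the lower left with 4 to 10.

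Ikzf1 encodes the founding member, and its promoter region, chr11:11685386-11686347, held 3 of the 4 protein-coding TSSs. It was called in all 32 libraries that were not MEPs and in 0 of 4 MEP libraries (Fisher's exact test, Benjamini-Hochberg adjusted p = 0.000421). Its highest fold enrichment over local background, the value MACS2 gives for a summit, ranged from 5.85 to 8.85 in the 8 HSC libraries (median 6.78) and from 4.95 to 9.70 over all HSC and MPP libraries (median 7.09). In GMPs it was 18.8 and 21.1 in the young and 25.9 and 20.0 in the aged libraries, and in CLPs 8.43 and 6.87 in the young and 8.42 and 9.62 in the aged libraries. The GMP libraries thus stood apart from all others with no overlap.

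Ikzf2 encodes Helios, and its promoter region, chr1:69687055-69687901, held 1 of its 4 TSSs. It was likewise called in 32 libraries and in 0 of 4 MEP libraries (adjusted p = 0.000421, Fisher's exact test). Fold enrichment ranged from 5.51 to 9.31 in HSCs (median 7.80), was 7.47 to 10.2 in CLPs, and was 12.5 and 14.5 in young and 10.7 and 11.8 in aged GMPs. The GMP values overlapped those of MPP3 and MPP4, the highest of which were 12.3 and 12.8, and after centring the promoter's level in GMPs was not distinguished from the mean of the other fractions, MEPs left out (log2 difference 0.01, SE 0.13, adjusted p = 0.943, limma). Without centring the Ikzf2 promoter was higher in GMPs (0.57, adjusted p = 0.000669).

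Ikzf4 encodes Eos, and its promoter region, chr10:128645600-128646059, held 2 of 3 TSSs. It was called in all 8 HSC libraries, in all 4 of MPP1, MPP2 and MPP4, in 3 MPP3 and 3 CLP libraries, in 1 GMP library and in 0 MEP libraries. The deficit in MEPs passed the threshold (27 of 32 other libraries, adjusted p = 0.019, Fisher's exact test) and the one in GMPs did not (1 of 4 against 26 of 32, adjusted p = 0.101). Without the second aged GMP replicate, the only GMP library that called it, the deficit in GMPs had an adjusted p of 0.0447 by the same test. In the 8 HSC libraries the fold enrichment ranged from 6.90 to 11.7 (median 8.63), and the 3 CLP libraries gave 8.49 to 14.2.

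Ikzf5 encodes Pegasus, and its single region, chr7:131410106-131410873, holds all 3 of its TSSs and was the only family region called in all 36 libraries. The TSS of Acadsb, an acyl-CoA dehydrogenase gene, lies 112 bp from the region's centre, so the signal cannot be assigned to either gene. Fold enrichment was 15.5 to 22.7 in HSCs (median 20.5), 24.3 to 27.4 in GMPs, 19.5 to 22.6 in CLPs and 8.66 to 12.03 in MEPs. After each library was centred on its median, none of the 8 fraction contrasts of this region passed the threshold or had an unadjusted p under 0.05 (limma over 36 libraries and 5335 regions). Of all regions in this fit, 11.9% were higher and 12% lower in HSCs, 2.02% and 2.29% in MPP1, 0.431% and 0.225% in MPP2, 0.0562% and 0.544% in MPP3, 0.112% and 0.412% in MPP4, 21.7% and 28.1% in GMPs, 25.5% and 17.2% in MEPs, and 3.6% and 5.23% in CLPs. Without centring the GMP and the MEP contrasts of the Ikzf5 promoter passed.

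Ikzf3, which encodes Aiolos, had no region by the rule. Its TSS lies at position 98545800 of chromosome 11 and no peak of any library covered it. Inside the gene body, 4 regions were called in 4, 1, 4 and 3 GMP libraries and in no library of another fraction, and they lie 64341 to 75816 bp downstream of the TSS, nearer to Grb7, an adaptor protein gene, than to the Ikzf3 TSS. The region nearest to the Ikzf3 TSS was centred 5491 bp upstream, 113 bp from the TSS of Zpbp2, and was called in all 36 libraries. Accessibility at the Ikzf3 TSS was thus not detectable by these peak calls.

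Calls were then compared between each fraction and all other libraries for the 41 family regions called in at least 2 libraries, with Fisher's exact test and Benjamini-Hochberg adjustment over all 85671 such regions of the genome. In a bulk library fewer cells with an open site and less accessibility per cell cannot be told apart.

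In MEPs, 2 of 41 family regions (4.88%) were called more often than in other libraries, against 0.859% of all regions, and 7 (17.1%) less often, against 13% of all regions. The share of lower calls was near that of the genome. Both higher regions are the intronic ones printed first, and each was called in 4 of 4 MEP and 0 of 32 other libraries (adjusted p = 0.000421, Fisher's exact test). They reached the minimum of 2 libraries through their MEP calls alone, as did 1.23% of all regions tested, so they had to differ in this direction and their count is a description only. At Ikzf1 +42.8 kb the fold enrichment was 5.603 and 7.762 in young and 4.45 and 6.40 in aged MEPs. At Ikzf2 +124.3 kb it was 7.97 and 5.24 in young and 6.77 and 7.85 in aged MEPs. These are low values next to the Ikzf5 promoter in the same libraries, and the ages overlapped at Ikzf1 and at Ikzf2. Of all 105005 regions, 281 (0.268%) were called in every MEP library and no other.

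The 7 regions called less often in MEPs were the promoters of Ikzf1, Ikzf2 and Ikzf4 given above, a region 170.5 kb downstream of the Ikzf2 TSS and beyond the end of the gene (0 of 4 against 32 of 32, adjusted p = 0.000421), Ikzf2 +77.1 kb (0 against 28 of 32, adjusted p = 0.0117), Ikzf2 +46.0 kb (1 against 30 of 32, adjusted p = 0.0405) and Ikzf1 +44.0 kb (0 against 27 of 32, adjusted p = 0.019), all by Fisher's exact test. At Ikzf1 the MEP libraries therefore called +42.8 kb and not +44.0 kb, while 27 libraries of HSCs, MPPs and GMPs called +44.0 kb and not +42.8 kb, and CLPs called neither. With each library held to its 9581 highest-ranked peaks, the number in the smallest MEP library, 0 family regions were called less often in MEPs, against 4.46% of all regions. Fewer family regions were tested at this setting than with all peaks kept, though all 7 lower regions were among them. This setting leaves the MEP lists nearly whole and shortens all others, so it is no test of the regions called more often in MEPs. Both higher regions fell below the threshold when only peaks with a -log10 q of at least 10 were used, since 2 of the 4 MEP libraries then called them (adjusted p = 0.0603). Leaving out either young MEP library left 4 lower regions. Of 40 alternatives, 33 kept the call of the Ikzf4 promoter, 33 that of Ikzf1 +44.0 kb and 34 that of Ikzf2 +46.0 kb. Ikzf2 +77.1 kb and +170.5 kb were kept in 38, and the promoters of Ikzf1 and Ikzf2 in 39.

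**Figure D3:**
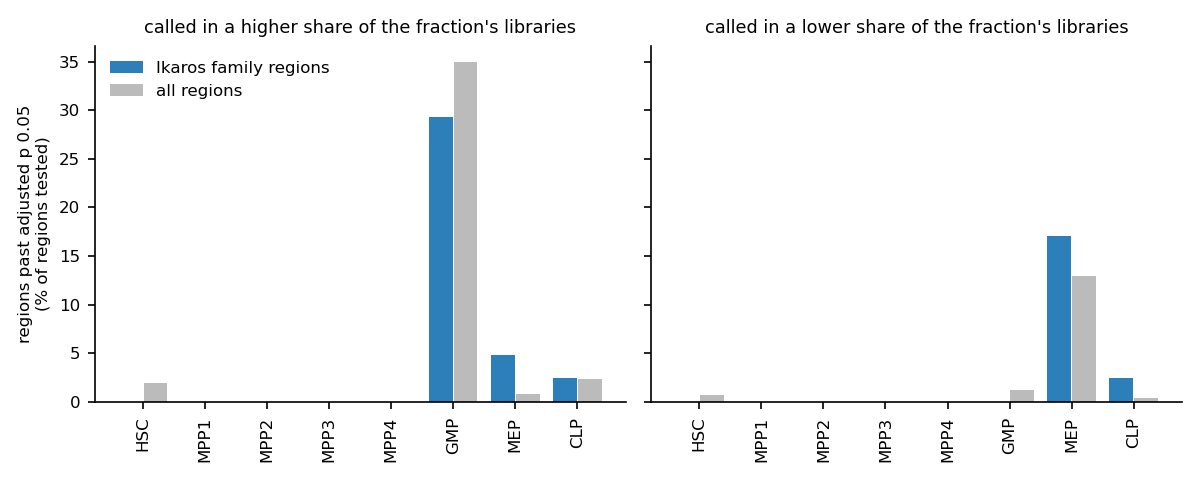
Percentage of tested regions past an adjusted p of 0.05 (y axis) for each fraction against all other libraries, in blue for the 41 family regions and in grey for all 85671 regions, with regions called in a higher share of the fraction's libraries on the left and in a lower share on the right. The blue and grey bars are of like height in GMPs, at 29.3% and 34.9%, and the family bar for higher calls in MEPs, at 4.88% against 0.859%, stands for the 2 regions that were called in MEPs alone.

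In GMPs, 12 of 41 family regions (29.3%) were called more often, against 34.9% of all regions, and 0 less often, against 1.27%, so the family did not exceed the genome. At unadjusted p under 0.05 there were 14 and 1. Of the 12, 6 belonged to Ikzf1, at 6.7 kb upstream and at +2.6, +5.4, +22.7, +30.3 and +55.3 kb, and the other 6 to Ikzf2, at +0.9, +53.4, +100.1, +165.9, +176.4 and +190.3 kb, with adjusted p from 0.000157 to 0.0286 (Fisher's exact test). Ikzf2 +53.4 kb passed in 36 of the 38 alternatives that tested it (adjusted p up to 0.0512, Fisher's exact test). Ikzf2 +190.3 kb passed in 38 of 39 (up to 0.386). Through GMP calls alone, 10 of the 41 family regions tested reached the minimum of 2 libraries, against 25.6% of all regions tested. The 12 include 9 of these 10, and the count of 12 is therefore a description. Of the 52 family regions, 3 were called in all 4 GMP libraries and in no other library, against 8.81% of all regions. At Ikzf1 +22.7 kb the fold enrichment was 11.3 and 11.1 in young and 8.25 and 11.7 in aged GMPs. At Ikzf2 +176.4 kb it was 9.59 and 9.07 in young and 7.89 and 9.62 in aged GMPs, and at Ikzf2 +0.9 kb, in a coding exon, it was 6.34 and 7.02 in young and 7.22 and 6.84 in aged GMPs. Ages overlapped at all 3.

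With equal numbers of peaks per library, which shorten the GMP lists the most, 10 of these 12 regions were called in no library and 2 in 1 library, so 0 of the 12 could be tested. Of all regions tested at this setting, 10.2% were higher and 4.32% lower in GMPs. The region 28.6 kb upstream of Ikzf1 was lower (adjusted p = 0.0385, Fisher's exact test), and 3 regions were higher: Ikzf1 +44.0 kb (adjusted p = 0.00384), Ikzf2 +29 kb (adjusted p = 0.00609) and Ikzf2 +187.9 kb (adjusted p = 0.0385). These 3 were called in many fractions with all peaks kept. At Ikzf1 +44.0 kb the GMP libraries gave a fold enrichment of 25.4 and 21.5 (young) and 21.6 and 20.1 (aged), against 4.49 to 12.1 in the 23 HSC and MPP libraries that called it. At Ikzf2 +29 kb they gave 16.04 and 23.2 (young) and 21.6 and 23.9 (aged), against 3.89 to 11.3 in 17 HSC and MPP libraries. At Ikzf2 +187.9 kb they gave 23.5 and 23.0 (young) and 22.5 and 21.4 (aged), against 5.37 to 18.3 in 18 HSC and MPP libraries and 6.92, 8.68, 8.23 and 5.26 in MEPs. The GMP values lay above all others at each of these regions, which were chosen for being higher in GMPs. GMP libraries were also higher in general, with a median fold enrichment of 18.5 to 20.3 over the 5335 regions called in all 36 libraries, against 11.6 to 15.5 in HSC, MPP and CLP libraries and 7.52 to 7.77 in MEP libraries.

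In CLPs, 1 of 41 family regions (2.44%) was called more often, against 2.37% of all regions, and 1 less often, against 0.386%. Ikzf1 +30.3 kb was called in 4 of 4 CLP libraries and 4 of 32 others, all GMPs (adjusted p = 0.0431, Fisher's exact test). The fold enrichment there was 8.86 and 8.76 in young and 11.3 and 9.15 in aged CLPs, and 16.4 and 10.3 in young and 15.6 and 12.2 in aged GMPs. The region was not called in MPP4, the lymphoid-primed progenitor. Ikzf2 +77.1 kb was called in 0 of 4 CLP and 28 of 32 other libraries (adjusted p = 0.0431), with a fold enrichment of 5.51 to 13.045 in HSCs and MPPs (median 7.73) and 10.8 to 15.5 in GMPs. Ikzf1 +44.0 kb was also called in 0 of 4 CLP libraries, with an adjusted p of 0.0607. Leaving out any CLP library ended both CLP calls (adjusted p 0.146 to 0.17), as did testing with no filter on the number of libraries (adjusted p = 0.0528).

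In HSCs 0 of 41 family regions passed in either direction, against 1.98% higher and 0.772% lower over all regions, and 2 higher and 2 lower had an unadjusted p under 0.05. The higher ones were Ikzf1 +39.9 kb (3 of 8 against 0 of 28, adjusted p = 0.133) and Ikzf1 18.3 kb upstream (7 of 8 against 12 of 28, adjusted p = 0.337), and the lower ones Ikzf2 +227.3 kb (adjusted p = 0.187) and Ikzf4 +7.4 kb (adjusted p = 0.302), all by Fisher's exact test. Ikzf1 +39.9 kb reached the minimum of 2 libraries through HSC calls alone, as did 5.28% of all regions tested. It could therefore differ in this direction only. For MPP1, MPP2, MPP3 and MPP4 no region of the genome passed, with 1, 1, 0 and 1 family regions at unadjusted p under 0.05. The last was Ikzf4 +7.4 kb, in an intron of Ikzf4, which was called in 4 of 4 MPP4 and 9 of 32 other libraries (adjusted p = 0.782, Fisher's exact test), of which 3 were MPP2, 2 MPP3, 2 GMP, 1 MEP and 1 CLP. MPP4 and CLPs as 1 group, the lymphoid-biased fractions, had 0 family regions past the threshold against 2.78% higher and 0.54% lower over all regions, with 1 in each direction at unadjusted p under 0.05.

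Where all libraries called a region, its fold enrichment could be compared as a level, on the log2 scale after centring each library on its median. With MEPs left out, 5 family regions could be tested among 11159, each fraction against the mean of the other 6 (limma, adjusted over all 11159). This fit and the next were added after it was seen that only the Ikzf5 promoter was called in all 36 libraries.

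**Figure D4:**
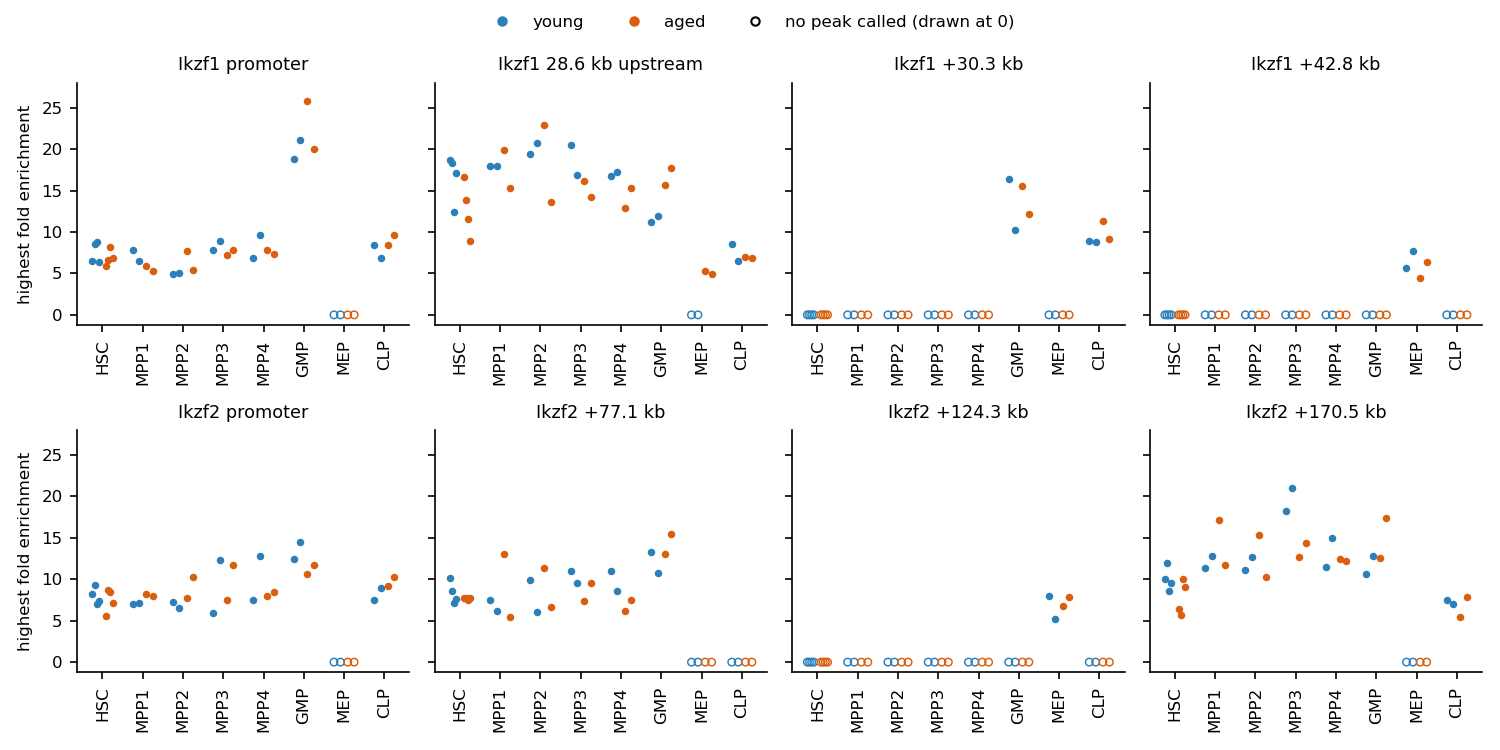
Highest fold enrichment over local background (y axis, linear) in each library for 8 regions, by fraction (x axis) and age (colour), with open circles at 0 for libraries without a peak. The Ikzf1 promoter is highest in GMPs (18.8 to 25.9), the upstream Ikzf1 region is lowest in CLPs (6.46 to 8.54) among fractions in which every library called it, and the regions at +42.8 and +124.3 kb have filled circles in MEPs alone.

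The Ikzf1 promoter was higher in GMPs by 1.02 on the log2 scale (SE 0.12, adjusted p = 2.27e-09, limma), where 22.1% of all regions were higher and 29.4% lower. It was lower in MPP1 (log2 difference -0.38, SE 0.12, adjusted p = 0.0381) and in MPP2 (-0.53, SE 0.12, adjusted p = 0.00643), where 2.84% and 1.22% of all regions were lower. Among HSCs and MPPs alone neither passed (MPP1 -0.19, adjusted p = 0.542, and MPP2 -0.34, adjusted p = 0.286, limma). The MPP2 difference was also lost without either young MPP2 replicate (adjusted p up to 0.0583). Its level in CLPs, the lymphoid fraction, was not distinguished from the mean of the others (0.11, SE 0.12, adjusted p = 0.529).

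The region 28.6 kb upstream of Ikzf1, chr11:11657010-11657671, had the highest median fold enrichment of the Ikzf1 regions, 15.5 over the 34 libraries that called it. This order did not hold in every fraction. In GMPs its mean of 14.2 ± 3.06 (SD, n = 4) was below those of the promoter (21.4 ± 3.08) and of +44.0 kb (22.2 ± 2.25), and in CLPs its mean of 7.21 ± 0.91 was below those of +30.3 kb (9.53 ± 1.22) and of the promoter (8.34 ± 1.13). It lies nearly midway between 2 genes, 28585 bp from the Ikzf1 TSS and 29516 bp from that of 4930512M02Rik. It gave 8.54 and 6.46 in young and 6.94 and 6.91 in aged CLPs against 8.95 to 18.8 in HSCs (median 15.3), with no overlap between them. Its level was lower in CLPs by limma (log2 difference -1.04, SE 0.13, adjusted p = 8.06e-08), where 10.2% of all regions were lower. It was also lower in GMPs (-0.60, SE 0.13, adjusted p = 0.000142), where the difference was -0.05 without centring and did not pass (adjusted p = 0.736). It was higher in MPP1 (0.45, SE 0.13, adjusted p = 0.0261) and MPP2 (0.59, SE 0.13, adjusted p = 0.00634), where 4.14% and 1.85% of all regions were higher. Among HSCs and MPPs alone the upstream region gave 0.09 in MPP1 (adjusted p = 0.797) and 0.27 in MPP2 (adjusted p = 0.408), and neither passed (limma). The MPP2 difference was lost without the first aged MPP2 replicate (adjusted p = 0.073), and the MPP1 difference without centring (0.36, adjusted p = 0.105). The MPP1 difference of the upstream region lost the threshold without any 1 of the 4 MPP1 libraries (adjusted p up to 0.109), and that of the promoter without the second young, the first aged or the second aged MPP1 replicate (adjusted p up to 0.202). Of the MEP libraries, only the 2 aged ones called the upstream region (5.26 and 4.96), and its lower share of calls in MEPs had an adjusted p of 0.0587 (Fisher's exact test), or 0.0485 and 0.0479 without the first or the second aged MEP replicate.

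The region 170.5 kb downstream of the Ikzf2 TSS, chr1:69513323-69514048, had a median fold enrichment of 11.6 over the 32 libraries that called it. In GMPs its mean of 13.3 ± 2.85 (SD, n = 4) was below those of +29 kb (21.2 ± 3.57) and of +187.9 kb (22.6 ± 0.88), and in CLPs its mean of 6.94 ± 1.07 was below that of the promoter (8.97 ± 1.14). It gave 18.3 and 20.997 in young and 12.7 and 14.4 in aged MPP3, 5.72 to 11.9 in HSCs (median 9.29), and 7.45 and 7.07 in young and 5.40 and 7.82 in aged CLPs. The MPP3 values lay above all HSC and all CLP values. By limma it was higher in MPP3 (log2 difference 0.63, SE 0.13, adjusted p = 0.0118), where 0.0896% of all regions were higher, and lower in CLPs (-0.74, SE 0.13, adjusted p = 3.15e-05) and in HSCs (-0.31, SE 0.10, adjusted p = 0.0125), where 12.6% of all regions were lower in HSCs. In GMPs it was lower after centring (-0.32, SE 0.13, adjusted p = 0.0287) and higher without it (0.23), so no direction is given there. The MPP3 call was lost without the second young MPP3 replicate (adjusted p = 0.08) and the HSC call without the second aged HSC replicate (adjusted p = 0.0615).

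Among HSCs and MPPs alone, 7 family regions could be tested among 13465. Ikzf2 +170.5 kb was lower in HSCs than in the mean of the 4 MPPs (log2 difference -0.58, SE 0.10, adjusted p = 0.00016, limma), where 7.08% of all regions were lower. Ikzf2 +46.0 kb was lower in MPP4 (-0.48, SE 0.13, adjusted p = 0.0197), where 4.58% of all regions were lower. The 4 MPP4 libraries gave 7.06 and 5.36 (young) and 7.91 and 7.17 (aged) there, against 7.04 to 10.8 in HSCs (median 8.87). This call was lost (adjusted p up to 0.183) without the second young or the second aged MPP4 replicate. The other contrasts of these 7 regions did not pass.

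Age was compared last. By calls, 0 of 41 family regions passed over all fractions (exact conditional test with fraction as stratum) and 0 of 19 passed in HSCs (Fisher's exact test), with 0 at unadjusted p under 0.05 in both, and 0% of all regions passed in either test. The smallest p that 4 against 4 libraries allow is 0.0286, which passes the adjustment only if 57.1% of all regions reach it, so the HSC test of calls says nothing about an absence of differences. The lowest in HSCs was that of Ikzf1 +39.9 kb, chr11:11726151-11726513 in an intron, which was called in 3 of 4 aged and 0 of 4 young HSC libraries and in no other library (unadjusted exact p = 0.143, adjusted p = 1). Its fold enrichment was 4.53, 5.44 and 4.96 in the 3 aged libraries. Next were Ikzf2 +227.3 kb and the region 1.9 kb upstream of the Ikzf2 TSS, each called in 2 young and 0 aged HSC libraries (unadjusted exact p = 0.429, adjusted p = 1). Each of these regions was called in HSCs of a single age, so it could differ in that direction only.

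By level, 0 of the 8 family regions called in all HSC libraries passed by age, against 0.0404% higher and 0.00577% lower of 17340 regions (limma). The smallest unadjusted p belonged to the region 28.6 kb upstream of Ikzf1, at 18.8, 18.3, 12.5 and 17.1 in young and 16.7, 13.9, 11.6 and 8.95 in aged HSCs (log2 difference, aged minus young, -0.39, SE 0.17, unadjusted p = 0.0341, adjusted p = 0.497, limma). The ages overlapped. In GMPs the same region was 11.3 and 11.98 in young and 15.6 and 17.7 in aged libraries (0.48, unadjusted p = 0.0257, adjusted p = 0.704, limma), a difference of the opposite sign. At Ikzf2 +170.5 kb the HSC values were 10.1, 11.9, 8.61 and 9.55 in young and 6.37, 5.72, 10.1 and 9.04 in aged libraries (-0.38, SE 0.19, adjusted p = 0.578, limma), and the Ikzf5 promoter gave 20.5, 20.97, 18.8 and 15.5 in young and 22.7, 16.7, 22.6 and 20.5 in aged HSCs (0.14, SE 0.11, adjusted p = 0.782).

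**Figure D5:**
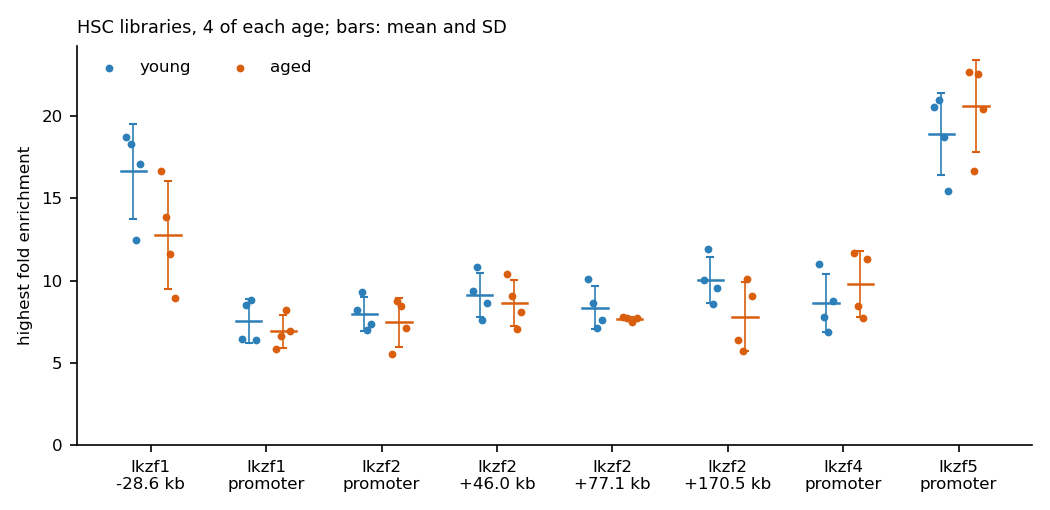
Highest fold enrichment (y axis, linear) in the 4 young and 4 aged HSC libraries for the 8 family regions called in all of them, with points for libraries, long bars for means and error bars for SDs. Young and aged points overlap at every region, including the upstream Ikzf1 region, where the means were 16.7 and 12.8.

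Of the MPP regions called in every library of their fraction, 10 were tested by age in MPP1, 10 in MPP3, 11 in MPP4 and 13 in MPP2, and 0 passed (limma), as did 0% of all regions there. Of 17 such regions in GMPs, 4 in MEPs and 8 in CLPs, 0 passed, against 0.00227% of all regions higher in aged GMPs and 0% otherwise. At unadjusted p under 0.05 there were 3 in MPP3, 1 in GMPs and 0 in the others. The 3 in MPP3 were all Ikzf2 regions, +187.9 kb (0.69) and +46.0 kb (0.61) with higher and +170.5 kb (-0.40) with lower log2 levels in aged libraries, each at an adjusted p of 0.999. Over HSCs and MPPs the age term passed for 0 of 7 family regions (limma), with 2 at unadjusted p under 0.05. Of all 13465 regions in that fit, 0.0223% were higher and 0.0223% lower in aged libraries.

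Genes that work with Ikaros were described from 2 lists. Regions of 14 cofactor genes, among them Chd4, Mta2, Hdac1 and Rbbp4 of the NuRD complex, numbered 47 tested, of which 15 were called more often in GMPs (31.9%, against 34.9% of all regions), 1 more and 2 less often in MEPs (2.13% and 4.26%, against 0.859% and 13%), and 0 in CLPs (against 2.37% and 0.386%) or HSCs (against 1.98% and 0.772%) in either direction. Of 14 lymphoid genes that Ikaros is known to act on, 10 had regions, and 86 of their regions were tested. Of the 86, 35 were called more often in GMPs (40.7%, against 34.9%) and 16 less often in MEPs (18.6%, against 13%). In CLPs 4 were called more often (4.65%, against 2.37%). In HSCs 2 were called more and 1 less often (2.33% and 1.16%, against 1.98% and 0.772%). The 4 in CLPs were 1 region 42228 bp upstream of Il7r, the interleukin-7 receptor gene (adjusted p = 0.0431), 2 upstream of Dntt, which encodes terminal deoxynucleotidyl transferase (15071 and 2525 bp, adjusted p = 0.0327 and 0.0431), and 1 at 128020 bp downstream of the TSS of Foxo1, a transcription factor of B cell development, called in 4 of 4 CLP and 0 of 32 other libraries (adjusted p = 0.00287, Fisher's exact test). The Foxo1 region and the farther Dntt region (3 CLP and 0 other libraries) reached the minimum of 2 libraries through CLP calls alone, as did 3.15% of all regions tested, so both could differ in this direction only.

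The number of regions of a gene per 10000 called regions, averaged per fraction, was compared between each member with at least 5 regions and 7322 genes with at least 5, as a description over 8 fraction means that share the libraries' depth. The genes most like Ikzf1 were Zfp715, Aftph and Mrps33 (Pearson r 0.974, 0.969 and 0.963, median of all genes -0.171). Those most like Ikzf2 were Phactr4, B4galnt4 and Prrc2b (0.98, 0.974 and 0.972, median -0.299).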

How the data were processed

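ATAC-seq of 36 libraries was performed by the authors with 60 bp single reads from fragments of 240 to 360 bp. Per the study's methods and processing notes, reads were aligned with Bowtie2 to mm10, subsampled with SAMtools to one number per library, and peaks were called per library with MACS2 2.2.6 at a fixed q-value limit. The authors deposited, for each summit, a fold enrichment over local background (a ratio) and its -log10 p-value and -log10 q-value. Read counts were not used here, so no count model was fitted, and fold enrichment is not a read depth.

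Entries with one interval and several summits were counted as 1 peak (1204561 peaks of 1358077 entries). Overlapping peaks were merged into regions, any overlapping peak of a library counted as a call of the region there, and the highest fold enrichment was its level. Regions were assigned by their centre to the nearest protein-coding TSS of the GENCODE M21 basic set (GRCm38, the assembly of mm10). Regions on all chromosomes lay within that assembly's lengths. Calls were compared with two-sided Fisher's exact tests, for age over fractions with an exact conditional test stratified by fraction, and levels with limma 3.58.1 (R 4.3.3) with a mean-variance trend on log2 fold enrichment centred on each library's median. Adjustment was after Benjamini and Hochberg over all regions tested, with a threshold of 0.05. Both kinds of test were tested on simulated data. The statistical code ran in Python 3.11.15 with SciPy 1.17.1.

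Named regions were those holding a TSS, up to 3 with the smallest adjusted p per fraction and direction, the 3 with the smallest p in the HSC age tests and the strongest of each member. The other regions past a threshold are named with them, and Ikzf1 +44.0 kb, Ikzf2 +29 kb and +187.9 kb were named after their values were seen. Members, gene lists and motif words were chosen with earlier results of these data known. Alternatives were peaks with a -log10 q of at least 10, peaks covering at least 50% of a region, equal numbers of peaks per library, no filter on libraries, other scalings of the level, leaving out each library, and a replicate block. Replicate numbers gave no clear pairing of the libraries: deviations of same-numbered young and aged HSC libraries correlated by -0.079 to 0.179. In the other fractions the values ranged from -0.011 in MPP4 to 0.137 in MPP3. Young HSC replicate 3 correlated by 0.179 and 0.185 with aged HSC replicates 3 and 4, and by -0.195 and -0.167 with aged replicates 1 and 2. The TSS result of a further gene of the MEP marker list is not reported here.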

Additional observations from a re-analysis of the deposited data

How the results depend on the processing

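The number of family regions was 21 with equal numbers of peaks per library and 11 with TSSs of all gene types, since noncoding transcripts such as Gm12000 (12 regions) then stood nearer. With equal numbers of peaks per library, the counts of called regions past the threshold were 3 higher and 1 lower in GMPs (the lower one Ikzf1 28.6 kb upstream), 4 higher and 0 lower in MEPs, whose lists stay nearly whole (7.35% of all regions higher), and, with the 12 GMP regions and Ikzf1 +30.3 kb in CLPs no longer tested, 0 higher and 0 lower in CLPs. With a -log10 q of at least 10 they were 8 higher in GMPs (6 of the 12, joined by Ikzf2 +72.7 kb and 1.9 kb upstream of Ikzf2), 0 higher and 4 lower in MEPs (3 of the 7, joined by Ikzf1 28.6 kb upstream) and 0 lower in CLPs, with 50% of the region covered 3 lower in MEPs and 0 lower in CLPs, and with no filter on libraries 0 in CLPs in both directions. Leaving out single libraries gave 0 to 1 lower in GMPs, 4 to 7 lower in MEPs (4 without either young MEP library), and in CLPs 0 to 1 higher and 0 to 2 lower (0 without any CLP library, 2 lower without any MEP library or aged HSC 1), the added regions being in GMPs Ikzf4 at its promoter (without the second aged GMP replicate) and Ikzf2 +72.7 kb (without the first young one, adjusted p = 0.0473, or without aged HSC 1), in MEPs Ikzf1 28.6 kb upstream (without either aged MEP replicate) and in CLPs Ikzf1 +44.0 kb. In the fit of levels over all fractions, 0 contrasts of the Ikzf5 promoter passed, and not centred 1 did in GMPs and 1 in MEPs. With MEPs left out the counts became 1 in HSCs and MPP3, 2 in MPP1, MPP2 and CLPs, and 3 in GMPs, and with HSCs and MPPs alone 1 in HSCs and 1 in MPP4. Within the fit without MEPs, the count in HSCs was 2 not centred and 2 with -log10 p in place of fold enrichment, and the count in MPP1 was 1 not centred, while a -log10 q of at least 10 in every library left 0 in each fraction, since of the family only the Ikzf2 and Ikzf5 promoters were then tested. Leaving out single libraries gave 0 to 1 in HSCs (0 without aged HSC 2) and MPP3 (0 without young MPP3 2), 0 to 2 in MPP1 (0 or 1 without any MPP1 library), and 1 to 2 in MPP2 (1 without young MPP2 1, young MPP2 2 or aged MPP2 1). Within HSCs and MPPs alone, the count was 1 in MPP3 with -log10 p, 0 in HSCs and 0 in MPP4 with a -log10 q of at least 10, and 0 to 1 in MPP3 (1 without young MPP4 2, aged HSC 2, aged HSC 3, aged MPP1 1 or aged MPP2 1) and 0 to 1 in MPP4 (0 without young or aged MPP4 2) when single libraries were left out. Not centring moved the GMP contrast by 0.55 and reversed Ikzf2 +170.5 kb there to 0.23. The cause of the other changes was not tested. With the replicate block, 0 family regions passed by age in calls or levels, as without it. For calls in HSCs the block and the HSC replicates 1 and 2 or 3 and 4 alone, which also gave 0, could not pass (smallest p 0.125 and 0.333), so their 0 says nothing of stability. Without read counts, weak peaks near the calling limit bound what can be said of absent calls.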
